A study of Mus musculus with 8 samples.

Results

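The genes described here build and supply major histocompatibility complex (MHC) class I molecules, which display peptides from inside a cell to CD8+ T cells. They are 10 genes chosen by symbol: B2m, H2-K1, H2-D1, Tap1, Tap2, Tapbp, Nlrc5, Psmb8, Psmb9 and Psmb10. All 10 were found among the 17495 genes listed for the total OT-I cells and among the 13126 rows listed for Ttex cells, and all 10 passed the filter on low values in both. Polyadenylated RNA was measured in 8 libraries of mouse OT-I cells, CD8+ T cells with a transgenic receptor for an ovalbumin peptide held by the H2-K1 product of B6 mice. Zbtb32-/- (KO) and wild-type (WT) naive OT-I cells were given together to B6 mice, B16-OVA melanoma cells that make ovalbumin were placed under the skin 1 day later, and both OT-I populations were sorted from the tumors at day 30. The 4 groups were all sorted OT-I cells (here total OT-I cells) labelled KO, the same labelled WT, and the Tim-3+ subset, called Ttex in the labels, of each genotype, with 2 libraries per group. The sources used here do not give the age or sex of the mice, the number pooled or the deleted part of Zbtb32. The comparison asks how the RNA of these genes differs between genotypes within each population.

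A class I molecule pairs a heavy chain, from H2-K1 or H2-D1, with the invariant light chain beta-2 microglobulin from B2m. Tap1 and Tap2 encode the chains of the transporter that moves peptides into the endoplasmic reticulum, and Tapbp encodes tapasin, which bridges that transporter to empty class I molecules. Psmb8, Psmb9 and Psmb10 encode the catalytic subunits that replace the products of Psmb5, Psmb6 and Psmb7 in the immunoproteasome and change which peptides it cuts. Interferon gamma, a cytokine that activated CD8+ T cells themselves secrete, induces the whole group. Nlrc5 encodes a transactivator that acts at class I promoters through a conserved set of boxes, and lymphocytes express these genes without added interferon.

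Promoter stretches are shown for the genes on which the results below turn, B2m, the 2 heavy chains, and Psmb8 as the immunoproteasome gene with a match to the gamma-activated sequence. They come from RefSeq (GRCm38.p6, the build also called mm10), in windows from 250 bases before to 50 bases after each start, which were present for 8 of the 10 genes and not for Tap2 and Nlrc5. Capitals mark matches to the core of the element bound by interferon regulatory factors (AANNGAAA), the gamma-activated sequence (TTCNNNGAA), a kappa B site (GGGATTCCC), and the core letters of the X2 box (TGACG) and Y box (ATTGG) to which the NLRC5-bound complex is recruited. Both strands were searched, so TTTCACTT is the interferon regulatory factor core read on the other strand, and TTCNNNGAA reads the same on both. The B2m stretch is chr2:122147540-122147648 (plus strand), the H2-K1 stretch is chr17:34000349-34000467 (minus strand), the H2-D1 stretch is chr17:35262914-35263032 (plus strand) and the Psmb8 stretch is chr17:34198088-34198116 (plus strand).
B2m: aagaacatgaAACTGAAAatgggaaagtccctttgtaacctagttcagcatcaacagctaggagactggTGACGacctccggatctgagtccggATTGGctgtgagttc
H2-K1: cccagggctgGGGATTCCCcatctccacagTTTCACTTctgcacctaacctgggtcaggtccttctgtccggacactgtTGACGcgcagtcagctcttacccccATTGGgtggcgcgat
H2-D1: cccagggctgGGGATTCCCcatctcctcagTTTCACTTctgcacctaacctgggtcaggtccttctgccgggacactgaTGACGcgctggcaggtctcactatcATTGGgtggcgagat
Psmb8: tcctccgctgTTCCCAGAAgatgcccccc

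The H2-K1 and H2-D1 stretches were identical at 107 of 119 bases (89.9%), including every letter in capitals. B2m shared with both heavy chains a distance of 25 bases from the first base of TGACG to the first base of ATTGG, on the gene's own strand. That spacing occurred in 19 of the 32851 promoter windows in the RefSeq table (0.0578%). The distance was read from these promoters rather than set beforehand, and their own windows are among the 19. GGGATTCCC occurred in 0.353% of all windows and TTCNNNGAA in 8.3%. TGACG (20.8%), AANNGAAA (23.9%) and ATTGG (37.4%) are common, so a match to one of them alone says little. None of the matches shown overlaps another. The Tap1 and Psmb9 windows overlap, since the genes start back to back on opposite strands, and 275 of their 300 bases were the same sequence. TGACG and ATTGG were found there on opposite strands relative to each gene. The Tapbp window held ATTGG at 2 places, and the Psmb10 window held none of the letters searched.

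On mm10 (GENCODE M21) 7 of the genes lie on chromosome 17 within or near the MHC: Tapbp (chr17:33915899-33929292), H2-K1 (chr17:33996017-34000347), Psmb9 (chr17:34181987-34187764), Tap1 (chr17:34187553-34197225), Psmb8 (chr17:34197721-34201454), Tap2 (chr17:34203527-34216321) and H2-D1 (chr17:35262730-35267499). B2m lies at chr2:122147686-122153083, Nlrc5 at chr8:94434356-94527272 and Psmb10 at chr8:105935735-105938444. Exons of Psmb9 and Tap1 overlap by 212 bases on opposite strands, those of Psmb8 overlap the antisense gene Gm20496 by 498 bases, those of Tap2 overlap the antisense gene Gm15821 by 533 bases, and those of Tapbp overlap the antisense gene Gm19412 by 904 bases. No source used here says whether reads were counted by strand, so reads in those stretches cannot be assigned to one partner. Among all 50-base words of each gene's longest protein-coding transcript, 8.79% for H2-K1 and 14.3% for H2-D1 also occurred in other genes. Those were mostly H2-Q1, H2-Q7, H2-T23 or each other. At 100 bases the shares were 0 and 4.64%, so some reads of the heavy chains are uncertain.

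Zbtb32, the targeted gene, had RNA at similar or higher levels in KO. In total OT-I cells it stood at 94.9 and 73.0 FPKM (fragments per kilobase of exon and per M reads) in KO against 79.8 and 87.1 FPKM in WT. In Ttex cells it stood at 6822 and 5715 against 3976 and 3951 normalized counts (limma log2 fold change 0.66, adjusted p = 0.183). Without knowing which part was deleted, this gives no check of the labels, and KO and WT below mean the libraries so labelled. Depth recovered from the values was 18.6 to 21 M reads per library in total OT-I cells and 51.6 to 59.2 M in Ttex cells, so each of the 10 genes rested on at least 4203 reads per library in the former. T cell markers were present in every library of total OT-I cells (Cd8a at 303 to 418 FPKM and Cd3e at 92.2 to 143 FPKM). Of 7 tested there, 3 were called lower in KO (Thy1 at -0.95, Cd3d at -0.58 and Cd3g at -0.57), with a list median of -0.49. With centring 1 of the 7 was called lower. In Ttex cells Cd8a was at 67936 to 73901 normalized counts, and 0 of 8 T cell markers were called. Across the 9574 genes tested in total OT-I cells the median log2 fold change (KO over WT) was -0.24, and 30.4% were called lower and 2.45% higher, 32.8% in all. With each library centred on its median gene the calls were 11.9% lower and 10.7% higher. The library totals by which FPKM was divided were 1.12 and 1.25 (KO) and 0.962 and 0.951 (WT) times the recovered reads. A larger total lowers every FPKM value of a library, and its part in these shares was not tested.

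Other cells' markers moved with genotype. Of 20 tested markers of macrophages, monocytes and dendritic cells, 18 were called lower in KO in total OT-I cells, and their summed level was 391 and 342 FPKM in KO against 945 and 865 FPKM in WT. In Ttex cells the same list summed to 183383 and 140462 normalized counts in KO against 110967 and 88011 in WT, with no marker called. That list holds 4 class II genes. Without them it summed to 169 and 137 FPKM in KO against 460 and 409 FPKM in WT in total OT-I cells. In Ttex cells it summed to 113484 and 78078 in KO against 84868 and 63346 normalized counts in WT, where the genotypes overlapped. Ly6c2 alone made up most of each Ttex sum, at 74724 and 44412 in KO against 59855 and 39739 in WT. The overlap therefore says little about the other genes, and 18 of the 21 genes in that list had a positive log2 fold change. Red blood cell markers summed to 22.3 and 15.4 FPKM in KO against 10.3 and 8.17 FPKM in WT, and to 17857 and 10643 against 3412 and 2138 normalized counts. Melanoma markers summed to 23.8 and 21.6 against 13.6 and 17.7 FPKM, and to 72292 and 74911 against 34125 and 35164 normalized counts. In total OT-I cells 5 of 7 tested were called higher in KO, beside 2.45% of all tested genes. Mlana was called lower there (1.94 and 1.75 against 2.84 and 3.12 FPKM). No macrophage marker was at 0 in any library, and defining markers such as C1qb stood at 10.7 and 11.9 FPKM in KO and 52.2 and 50.9 FPKM in WT. Nearly all nucleated cells make class I molecules, and the part of these cells in the values below was not tested. In bulk RNA, fewer cells of a type and less RNA per cell cannot be told apart.

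In total OT-I cells B2m was called lower in KO (1 of the 10 genes), while the heavy chains and the transporter genes were not called. B2m stood at 4343 and 3272 FPKM in the 2 KO libraries and at 7871 and 6055 FPKM in the 2 WT libraries. Both KO libraries lay below both WT libraries, as in 56.6% of all tested genes. Its mean was 3808 ± 757 FPKM in KO and 6963 ± 1284 FPKM in WT (SD, n = 2), 1.83-fold higher in WT, with a log2 fold change of -0.87 (SE 0.23, limma adjusted p = 0.00102). B2m ranked 2 by mean level among all tested genes. Relative to the median gene its change was -0.63. The share of all tested genes called lower was 30.4%, so 1 of 10 lies below that background.

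The B2m call changed with the libraries included and with the scaling. Its log2 fold change was -0.68 without WT replicate 1 and -1.06, larger than with all libraries, without WT replicate 2. B2m was not called in either of those fits, each of which has a single WT library. Leaving out any 1 library gave log2 fold changes of -1.08 to -0.67. Centring each library on its median gave -0.62 with an adjusted p of 0.0787, upper-quartile scaling gave 0.0725, and testing without a filter gave 0.0841. The edgeR quasi-likelihood test on recovered reads called it lower (-0.62, adjusted p = 0.0326), as it did 11.5% of all genes, and the authors' deposited table lists -0.82 with an adjusted p of 0.00119 from DESeq2, where 15.4% of genes are lower. In limma's fit of this population the prior degrees of freedom were infinite, so each SE is that of genes at the same level rather than the gene's own spread. The labels do not tie the libraries of a group to separate animals, so every p-value here rests only on spread between these libraries, which may be technical. In this limma fit that spread is taken over genes at the same level.

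**Figure D1:**
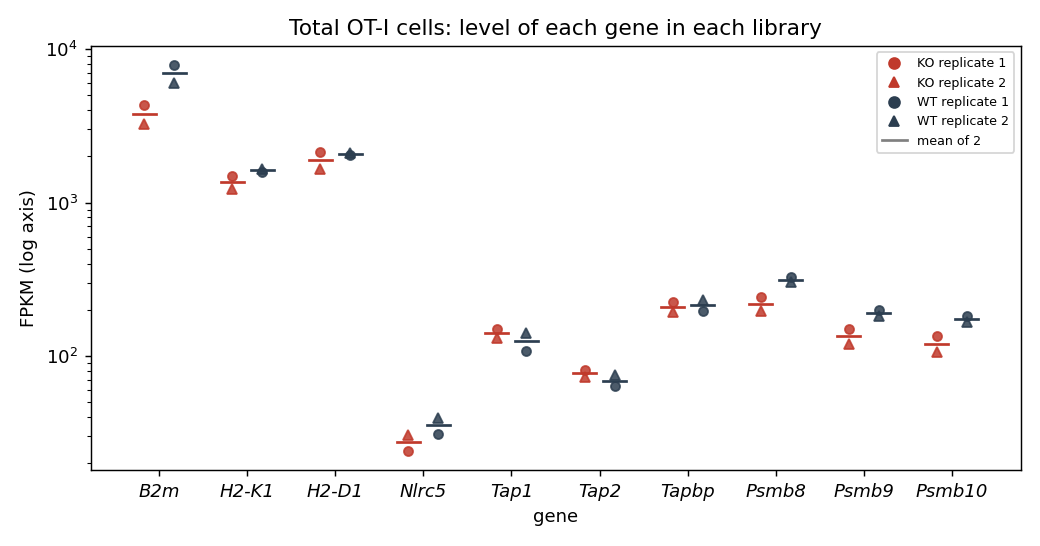
Level of each of the 10 genes in every library of total OT-I cells, in FPKM on a log axis; circles are replicate 1, triangles replicate 2, and the short lines are means of 2. B2m shows a clear gap between genotypes (3272 to 4343 FPKM in KO, 6055 to 7871 FPKM in WT), whereas the points of H2-D1, Tap1, Tap2 and Tapbp overlap.

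The heavy chains had log2 fold changes closer to 0 than B2m and were not called. With the replicate number as a block H2-K1 was called lower (limma adjusted p = 0.00834), as were 3510 of all 9574 tested genes. H2-K1, the gene of the chain that presents the ovalbumin peptide to OT-I cells, was at 1490 and 1216 FPKM in KO and 1572 and 1667 FPKM in WT. The groups did not overlap, with KO below WT as in 56.6% of all tested genes, but the gap between the nearest libraries was small. H2-K1 differed by -0.27 on the log2 scale (SE 0.24, limma adjusted p = 0.404). Its difference was -0.016 with centring, -0.0031 with edgeR and -0.044 with the length trend described below removed. H2-D1, the second classical heavy chain of B6 mice, was at 2141 and 1667 FPKM in KO and 2054 and 2116 FPKM in WT. KO replicate 1 was the highest of the 4 libraries and KO replicate 2 the lowest, with a difference of -0.14 (SE 0.23, adjusted p = 0.680), turning to 0.11 with centring and 0.12 with edgeR.

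Because a ratio within a library does not depend on its scaling, the heavy chains were also set against B2m. H2-K1 per B2m was 0.343 and 0.372 in KO and 0.200 and 0.275 in WT, on the FPKM scale. H2-D1 per B2m was 0.493 and 0.510 in KO and 0.261 and 0.349 in WT. Both ratios were higher in both KO libraries, by 0.61 and 0.73 on the log2 scale (pooled SD 0.24 and 0.21), and leaving out any 1 library kept them between 0.38 and 0.84 and between 0.52 and 0.94. A ratio still depends on transcript length where values change with it, and with that trend removed the differences were 0.23 and 0.40. With 2 libraries against 2 the exact two-sided permutation p was 0.333 for each, the smallest this design allows, unadjusted over the 7 ratios computed.

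Nlrc5, the transactivator gene, had the lowest level of the 10 genes. It stood at 23.9 and 30.5 FPKM in KO and at 31.0 and 39.4 FPKM in WT. The highest KO library lay just under the lowest WT library, an order found in 56.6% of all tested genes. Replicate 2 was above replicate 1 in both genotypes. The genotypes differed by -0.36 on the log2 scale (SE 0.21, limma adjusted p = 0.180), or by -0.11 with centring.

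Peptide transport genes were not called. Tap1 was at 149 and 131 FPKM in KO and 108 and 142 FPKM in WT (log2 fold change 0.18, SE 0.23, limma adjusted p = 0.592). Tap2 was at 80.7 and 73.0 FPKM in KO and 63.3 and 74.4 FPKM in WT (0.16, SE 0.22, adjusted p = 0.620). In both genes WT replicate 1 was the lowest library and the genotypes overlapped. Relative to the median gene the differences were 0.42 and 0.40. The ratio of Tap1 to Tap2 per exon length was 1.82 ± 0.0356 in KO and 1.80 ± 0.142 in WT (SD, n = 2), a log2 difference of 0.02 that was smaller than its pooled SD of 0.08. Tapbp was at 225 and 193 FPKM in KO and 196 and 230 FPKM in WT, again with overlap (-0.03, SE 0.23, adjusted p = 0.940), and its sign turned to 0.22 with centring.

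The 3 immunoproteasome genes had log2 fold changes close to one another and were not called. Psmb8 was at 243 and 195 FPKM in KO and 325 and 303 FPKM in WT. Psmb9 was at 150 and 120 FPKM in KO and 199 and 181 FPKM in WT. Psmb10 was at 135 and 106 FPKM in KO and 182 and 166 FPKM in WT. For each gene both KO libraries lay below both WT libraries, as in 56.6% of all tested genes, and KO replicate 2 was the lowest. The log2 fold changes were -0.52 (SE 0.23, limma adjusted p = 0.0702), -0.50 (SE 0.23, 0.0816) and -0.54 (SE 0.23, 0.0578). In the authors' deposited table the adjusted p-values are 0.0510, 0.0688 and 0.0513. They were 0.383, 0.415 and 0.337 with centring and 0.223, 0.275 and 0.221 with edgeR. The replicate block called all 3 lower (limma adjusted p = 0.00136, 0.00603 and 0.00368), as it did 3510 of all 9574 tested genes. Relative to the median gene the 3 values were -0.28, -0.26 and -0.30.

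The genes of the constitutive subunits that the immunoproteasome subunits replace had log2 fold changes of -0.67 to -0.47. Psmb5 was at 311 and 236 FPKM in KO and 404 and 364 FPKM in WT (log2 fold change -0.50, limma adjusted p = 0.0889). Psmb6 was at 199 and 147 FPKM against 249 and 227 FPKM (-0.47, adjusted p = 0.107). Psmb7 was at 38.2 and 33.0 FPKM against 61.9 and 52.8 FPKM and was called lower (-0.67, adjusted p = 0.00872), a call lost with centring (-0.42, adjusted p = 0.107), edgeR (0.0807) or upper-quartile scaling (0.0677) and without KO replicate 2 (0.0740), WT replicate 1 (0.262) or WT replicate 2 (0.0632). In none of the 3 genes did the genotypes overlap, with KO below WT as in 56.6% of all tested genes.

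The exchange of immunoproteasome for constitutive subunits, was read as a ratio within each library. Psmb8 per Psmb5 was 0.782 and 0.824 in KO and 0.804 and 0.831 in WT. Psmb9 per Psmb6 was 0.75 and 0.817 in KO and 0.801 and 0.797 in WT. The groups overlapped in both, and the log2 differences of -0.03 and -0.03 were within pooled SDs of 0.05 and 0.06 (exact permutation p = 0.667 and 1, two-sided). Psmb10 per Psmb7 was 3.52 and 3.22 in KO and 2.93 and 3.15 in WT, without overlap, a log2 difference of 0.15 with a pooled SD of 0.08 (exact permutation p = 0.333). With the length trend removed the 3 differences were -0.43, -0.24 and 0.37. With 2 libraries a group these values leave differences of the size of those SDs undetectable.

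Psmb9 and Tap1, which share a promoter region, had log2 fold changes of opposite sign. Psmb9 per Tap1 was 1.0 and 0.915 in KO and 1.85 and 1.27 in WT, lower in both KO libraries, with a log2 difference of -0.68 (pooled SD 0.28, exact permutation p = 0.333). Leaving out 1 library at a time gave -0.95 to -0.41. The 212 bases of shared exon sequence enter both genes where strand is not used.

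**Figure D2:**
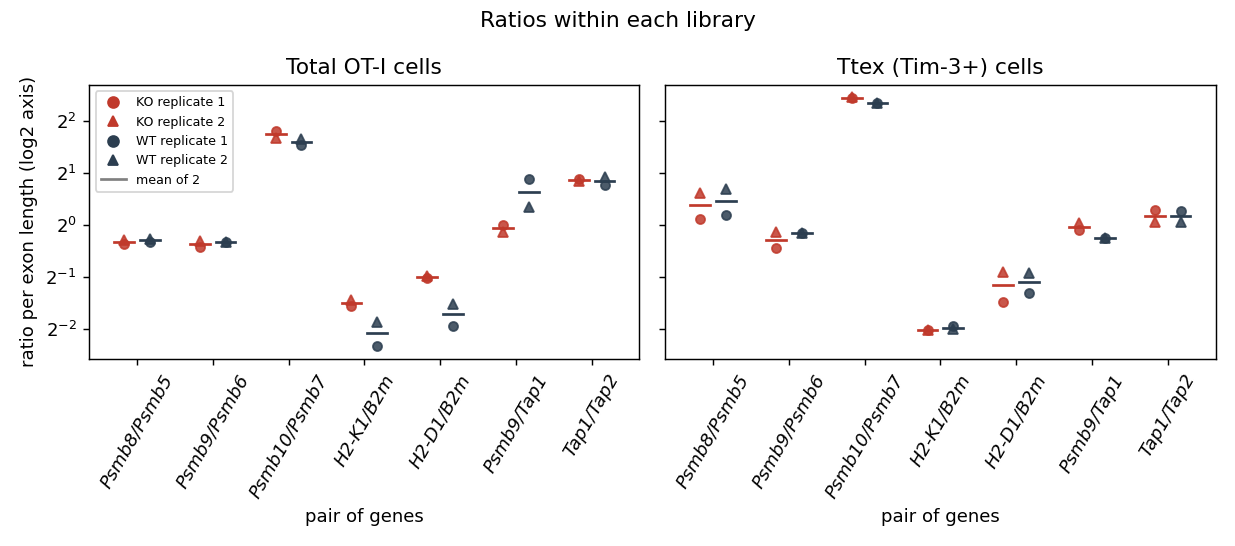
Ratio of 2 genes per exon length in each library on a log axis, with total OT-I cells in one panel and Ttex cells in the other; points are single libraries of each genotype. The heavy chains per B2m sit higher in KO in total OT-I cells (H2-D1 per B2m 0.493 and 0.510 against 0.261 and 0.349), and Psmb8 per Psmb5 and Psmb9 per Psmb6 overlap between genotypes in both populations.

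Taking the 10 genes as a list, 8 had a negative log2 fold change in total OT-I cells, as did 75% of all tested genes, and 6 (B2m, H2-K1, Nlrc5, Psmb8, Psmb9 and Psmb10) had both KO libraries below both WT libraries. Such a gap was found in 56.6% of all tested genes, and the median of the 10 genes was -0.31 beside -0.24 for all tested genes. These gaps and medians rest on the deposited scaling, in which the library totals given above were larger in KO relative to the recovered reads. With centring the medians were -0.06 and 0.01, and 6 of the 10 genes were negative. None had both KO libraries above both WT libraries, which held for 9.43% of all tested genes.

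Values in this population changed with transcript length. Among genes with an annotated exon length, the shortest decile had a median log2 fold change of -0.52 and the fifth decile, with exons merging to 3611 to 4300 bases, had -0.14. B2m has 860 bases of merged exon and falls in the shortest decile, Psmb10 has 1705 bases and falls in the next (median -0.34), while Psmb8 with 3381 and Psmb9 with 3660 bases fall where medians were -0.17 and -0.14. After the trend with length was removed from each library, an alternative chosen after the data were seen, 2 of the 10 genes were called, beside 12.9% of all genes called lower: B2m was at -0.28 (limma adjusted p = 0.0131) and Psmb8 at -0.34 (0.0388), with Psmb9 at -0.33 (0.0594) and Psmb10 at -0.13 (0.387). In Ttex cells the trend ran the other way, with 0.35 in the shortest decile and -0.10 in the fifth. The cause of either trend was not tested.

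**Figure D3:**
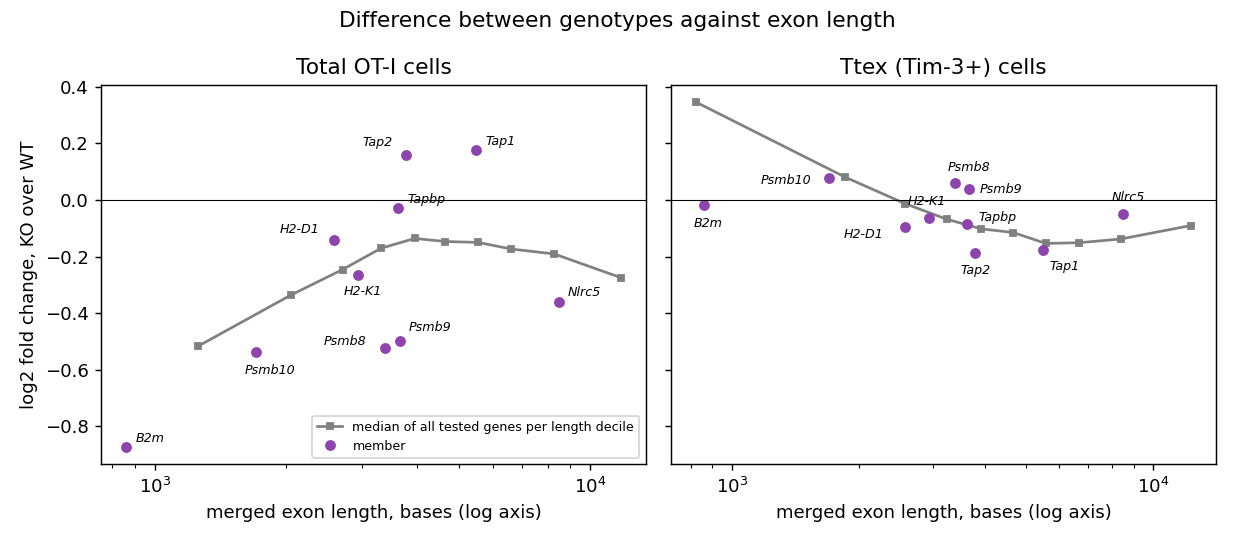
Log2 fold change (KO over WT) against merged exon length in bases on a log axis, for total OT-I cells and Ttex cells; purple points are the 10 genes and grey squares are medians of all tested genes in each decile of length, placed at the median length. In total OT-I cells B2m, Psmb8 and Psmb9 sit below the grey line and Tap1 and Tap2 above it; in Ttex cells B2m, at -0.02, sits below the median of 0.35 of its decile.

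In Ttex cells none of the 10 genes was called, and their log2 fold changes ran from -0.19 for Tap2 to 0.08 for Psmb10. The background was low too, with 0.0239% of 12559 tested genes called by limma and 14.2% at an unadjusted p under 0.05, of which the 10 genes held 0. The smallest of their adjusted p-values was 0.504. The edgeR test on recovered reads, DESeq2 and every other alternative run also called 0 of the 10 genes. For H2-D1, Tap2 and Tapbp both KO libraries lay below both WT libraries, as in 28.2% of all tested genes, and for 0 of the 10 genes they lay above, as in 19.9%. The median of the 10 genes was -0.06, the same as for all tested genes to 2 decimals. These values came from a separate table with its own normalization, so the difference between populations was not tested.

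B2m in Ttex cells was at 206805 and 138010 normalized counts in KO and 200547 and 145805 in WT. H2-K1 was at 175065 and 117099 in KO and 179807 and 124389 in WT. In both genes replicate 1 was high and replicate 2 low whichever the genotype, and the genotypes overlapped. The log2 fold change of B2m was -0.02 (SE 0.28, limma adjusted p = 0.983) and that of H2-K1 was -0.06 (SE 0.29, adjusted p = 0.934). The sign of both turned with centring, to 0.06 and 0.02. The replicate 1 over replicate 2 difference was larger than either, at 0.58 (KO) and 0.46 (WT) for B2m and 0.58 and 0.53 for H2-K1 on the log2 scale.

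H2-D1 lacked that difference between replicates. Its libraries held 224227 and 221901 normalized counts in KO and 244977 and 232272 in WT, replicate differences of 0.02 and 0.08. Both KO libraries lay below both WT libraries, with a log2 fold change of -0.10 (SE 0.22, limma adjusted p = 0.856). H2-K1 per B2m was close across the 4 libraries, at 0.248 and 0.248 in KO and 0.262 and 0.250 in WT per exon length. Both KO ratios lay below both WT ratios, with a log2 difference of -0.045 that turned to 0.33 with the length trend removed. H2-D1 per B2m ranged from 0.362 to 0.536 in KO and 0.407 to 0.531 in WT, following the replicate rather than the genotype. Its log2 difference of -0.079 turned to 0.26 with the length trend removed.

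The transport genes of Ttex cells had negative log2 fold changes, none of them called. Tap1 was at 41722 and 33840 normalized counts in KO and 45825 and 39286 in WT (log2 fold change -0.18, SE 0.17, limma adjusted p = 0.642). Tap2 was at 23569 and 22360 in KO and 26222 and 26003 in WT (-0.19, SE 0.12, adjusted p = 0.504). Tapbp was at 40733 and 40972 in KO and 44359 and 42347 in WT (-0.09, SE 0.13, adjusted p = 0.782). Tap2 and Tapbp did not overlap between genotypes, and Tap1 did. Nlrc5 was at 8060 and 9678 in KO and 9056 and 9215 in WT, with both WT libraries between the KO libraries (-0.05, SE 0.13, adjusted p = 0.888), and 0.03 with centring.

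The immunoproteasome genes of Ttex cells overlapped between genotypes. Psmb8 was at 55926 and 47044 normalized counts in KO and 50193 and 48322 in WT (log2 fold change 0.06, SE 0.15, limma adjusted p = 0.882). Psmb9 was at 26031 and 23292 against 25849 and 22251 (0.04, SE 0.14, adjusted p = 0.920). Psmb10 was at 14982 and 10146 against 13243 and 10317 (0.08, SE 0.22, adjusted p = 0.893), with replicate 1 above replicate 2 by 0.56 and 0.36 on the log2 scale. Psmb8 per Psmb5 was 1.09 and 1.54 in KO and 1.15 and 1.62 in WT, split by replicate number. Its log2 difference of -0.072 turned to 0.32 with the length trend removed. Psmb9 per Psmb6 was 0.741 and 0.913 against 0.900 and 0.903. Psmb10 per Psmb7 was 5.46 and 5.50 against 5.09 and 5.12, higher in both KO libraries by 0.10 on the log2 scale (pooled SD 0.0072, exact permutation p = 0.333), but the difference turned to -0.082 with the length trend removed. Psmb9 per Tap1 was 0.933 and 1.03 against 0.844 and 0.847, higher in KO by 0.21, the opposite direction.

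**Figure D4:**
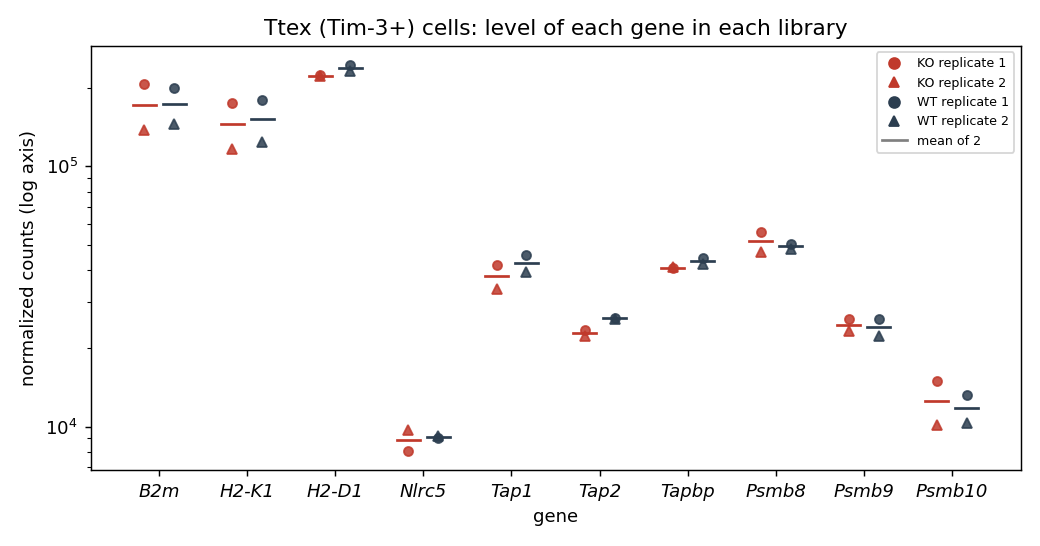
Level of each of the 10 genes in every Ttex library, in normalized counts on a log axis; circles are replicate 1, triangles replicate 2, and the short lines are means of 2. B2m, H2-K1 and Psmb10 split by replicate (B2m 206805 and 200547 against 138010 and 145805), whereas the H2-D1 points lie close together.

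**Figure D5:**
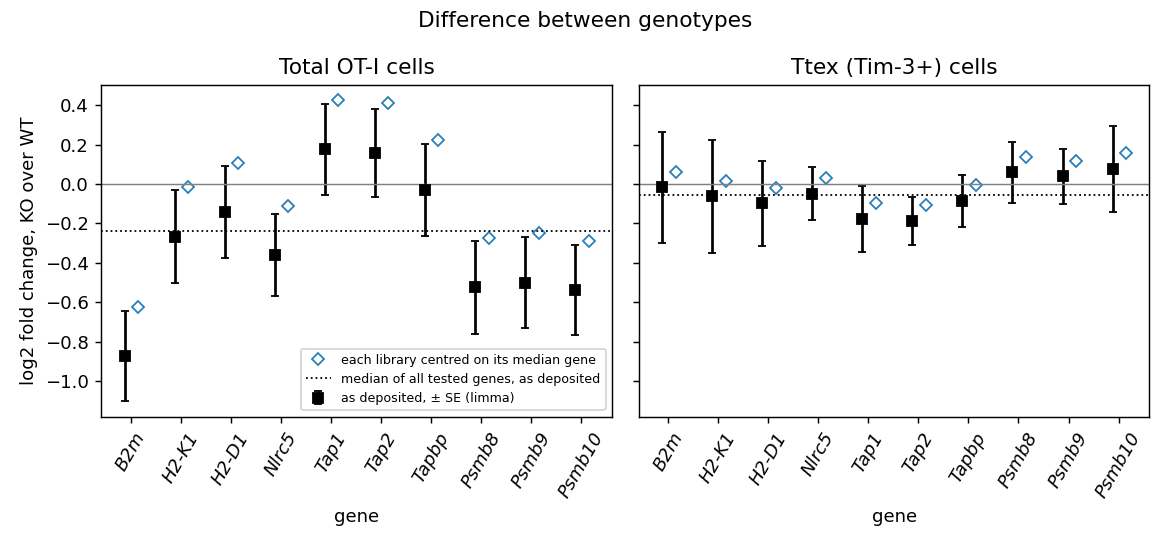
Log2 fold change (KO over WT) of each of the 10 genes in total OT-I cells and in Ttex cells; black squares with bars are deposited values ± SE from limma, open diamonds are values with each library centred on its median gene, and dotted horizontal lines mark the median of all tested genes (-0.24 and -0.06). B2m lies farthest from 0 in total OT-I cells (-0.87), and every black square for Ttex lies between -0.19 and 0.08.

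The order of levels was alike in both populations once length was taken into account. By FPKM in total OT-I cells B2m was highest, followed by H2-D1, H2-K1 and Psmb8, and Nlrc5 was lowest, in both genotypes. The libraries of B2m, H2-D1 and H2-K1 did not overlap with one another within a genotype. Psmb8 and Tapbp overlapped in KO but not in WT. Tap1 stood between Tapbp and Psmb9 in KO, at 140 ± 12.7 FPKM, and under Psmb10 in WT, at 125 ± 23.9 FPKM (SD, n = 2). In Ttex cells, as normalized counts per kilobase of exon, B2m, H2-D1, H2-K1, Psmb8 and Tapbp kept that order without overlap in either genotype, from 200474 for B2m to 11260 for Tapbp in KO. Psmb10, Tap1 and Psmb9 were not separated from their neighbours in KO, nor were Tap1, Psmb10, Tap2 and Psmb9 in WT. Nlrc5 was again lowest, at 1044 per kilobase in KO and 1076 in WT.

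Other class I genes were mostly uncalled. Of 13 tested genes of other class I and class I-like molecules in total OT-I cells, 3 were called lower and 0 higher, with a median of -0.25, beside 30.4% and 2.45% of all tested genes. With centring 2 were called lower and 1 higher, and with edgeR 1 was called lower. Fcgrt, the gene of the neonatal Fc receptor, a class I-like molecule used by macrophages and endothelium, was at 0.510 and 1.0 FPKM in KO and 2.34 and 2.33 FPKM in WT (log2 fold change -0.94, limma adjusted p = 1.79e-09), while the macrophage marker list fell with it. H2-Q4 was at 6.12 and 8.60 FPKM in KO against 12.6 and 13.3 FPKM in WT (-0.76, adjusted p = 0.000365), a call lost without KO replicate 1 (0.0563), with edgeR (0.0923), with upper-quartile scaling (0.0737) and with the length trend removed (0.0817). H2-Q1 was at 2.17 and 2.11 FPKM against 3.33 and 3.84 FPKM (-0.55, adjusted p = 0.00274), a call lost without WT replicate 2 (0.0519), with centring (0.139), edgeR (0.105), upper-quartile scaling (0.0934) or the length trend removed (0.114), and in the authors' deposited table (0.0548). H2-T23, which encodes the chain of Qa-1, a ligand of inhibitory receptors, was at 231 and 170 FPKM against 256 and 262 FPKM (-0.39, adjusted p = 0.199). In Ttex cells 0 of 18 were called, and H2-T23 was at 36693 and 22531 normalized counts in KO and 35124 and 21173 in WT, split by replicate like B2m and H2-K1. The most abundant of this list there, H2-Q7 and H2-Q6, had log2 fold changes of -0.02 and -0.23 (adjusted p = 0.978 and 0.538).

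Of 16 genes for peptide loading and trimming, 2 were called lower in total OT-I cells and 0 higher, with a median of -0.13, beside the same 30.4% of all tested genes called lower. Uggt1, a glycoprotein quality control enzyme of the endoplasmic reticulum, was at 9.24 and 11 FPKM in KO and 14.4 and 16.9 FPKM in WT (log2 fold change -0.59, limma adjusted p = 0.00953). Npepps, a cytosolic aminopeptidase, was at 3.57 and 3.61 FPKM against 5.35 and 4.77 FPKM (-0.40, adjusted p = 0.0480). Both calls were lost with centring, upper-quartile scaling, edgeR or the length trend removed, and when some libraries were left out: Uggt1 without KO replicate 1 (0.107) or WT replicate 2 (0.154), and Npepps without any 1 of the 4 (0.0751 to 0.298). In Ttex cells 0 of 16 were called, and the chaperone genes Hspa8 and Hsp90ab1 stood at 0.03 and -0.01.

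Calls of lower RNA in KO were found among the other proteasome genes. Of the 14 constitutive core subunits in total OT-I cells, 11 were called lower and 0 higher, with a median log2 fold change of -0.62, beside 30.4% called lower and a median of -0.24 for all tested genes. Psma3 was at 81.4 and 75.5 FPKM in KO and 148 and 123 FPKM in WT (-0.77, limma adjusted p = 0.00378). Psma2 was at -0.69 (adjusted p = 0.0113) and Psmb2 at -0.68 (0.0156). With centring 0 of the 14 were called and the median was -0.37, and with edgeR 1 was. The calls of Psma3, Psma2 and Psmb2 were also lost without WT replicate 1 (0.259, 0.394 and 0.460) and without WT replicate 2 (0.0610, 0.0903 and 0.148), and those of Psma2 and Psmb2 without KO replicate 2 (0.0987 and 0.142). In Ttex cells 0 of 14 were called, with a median of 0.14, and Psma3 and Psmb3, the most abundant, were at 0.15 and 0.17.

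Among 9 genes for proteasome activators and assembly factors, 7 were called lower in total OT-I cells and 0 higher, with a median log2 fold change of -0.63, again beside 30.4% of all tested genes called lower. Psme3, the gene of a nuclear proteasome activator, was at 8.88 and 8.72 FPKM in KO and 24.4 and 22.3 FPKM in WT (-1.31, limma adjusted p = 4.67e-10). Psme4, another activator gene, was at 1.94 and 2.22 FPKM against 4.60 and 5.26 FPKM (-0.94, adjusted p = 7.10e-08). These 2 kept their calls under all alternatives run, and they were the 2 called with centring. Psme1 and Psme2 encode the interferon-inducible activator of the immunoproteasome. Psme1 was at 177 and 144 FPKM against 252 and 208 FPKM (-0.52, adjusted p = 0.0710), and Psme2 was at 215 and 169 FPKM against 333 and 274 FPKM (-0.66, adjusted p = 0.0189). The Psme2 call was lost without KO replicate 2 (0.161), WT replicate 1 (0.454) or WT replicate 2 (0.155), with centring (0.179), with edgeR (0.107), with upper-quartile scaling (0.106) and with the length trend removed (0.0917). Psmg4, an assembly chaperone gene, was at -0.67 (adjusted p = 0.00839), lost without KO replicate 2 (0.213) or WT replicate 1 (0.305), with centring (0.120), edgeR (0.161) or upper-quartile scaling (0.112) and in the authors' deposited table (0.0540), and 0.03 after the trend with length was removed. In Ttex cells 0 of 9 were called, with a median of 0.25.

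Of 17 regulators of class I transcription tested in total OT-I cells, 2 were called lower and 0 higher, with a median log2 fold change of -0.10, beside 30.4% called lower and a median of -0.24 for all tested genes. Nfkb1, a gene of the NF-kappa B family that binds kappa B sites, was at 4.99 and 4.33 FPKM in KO and 9.91 and 10.3 FPKM in WT (-0.98, limma adjusted p = 5.66e-07). Jak2, a kinase gene of the interferon gamma receptor, was at 2.76 and 3.10 FPKM against 5.27 and 7.09 FPKM (-0.86, adjusted p = 3.14e-06). Both calls held under all alternatives run. Irf1, an interferon-induced factor that binds response elements, was at 53.5 and 48.2 FPKM against 52.2 and 57.3 FPKM (-0.10, adjusted p = 0.749), and 0.15 with centring. Ifngr1, a gene for a chain of the receptor, was at -0.19 (adjusted p = 0.571), turning to 0.06 with centring. In Ttex cells 0 of 20 were called, with Irf1 at -0.19 and Ifngr1 at -0.27.

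Ifng, the gene of interferon gamma, was at 26.6 and 21.6 FPKM in KO and at 318 and 253 FPKM in WT in total OT-I cells, a log2 fold change of -3.51 (SE 0.22, limma adjusted p = 1.07e-50). The Ttex libraries held 15219 and 13085 normalized counts in KO against 15443 and 15759 in WT (-0.14, adjusted p = 0.619). In the population where Ifng was called lower, B2m was called lower too, and the 3 immunoproteasome genes were uncalled at -0.50 to -0.54. Irf1, Tap1, Tap2 and Tapbp had differences smaller than their SE. The constitutive genes Psmb5, Psmb6 and Psmb7 were at -0.50, -0.47 and -0.67 there, and the median of all tested genes was -0.24. Whether Ifng had a part in any of these values was not tested.

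MHC class II genes, which professional antigen-presenting cells express and mouse T cells largely lack, were called lower in KO in all 8 tested in total OT-I cells. Their median log2 fold change was -1.07, and 30.4% of all tested genes were called lower. The macrophage and dendritic cell list holds Cd74, H2-Aa, H2-Ab1 and H2-Eb1 too, and without them 14 of its 16 tested genes were called lower. H2-Aa was at 14.1 and 12.4 FPKM in KO and 33.3 and 32.8 FPKM in WT (-1.26, limma adjusted p = 1.13e-08), and Cd74, the invariant chain gene, was at 130 and 127 FPKM against 296 and 277 FPKM (-1.15, adjusted p = 1.13e-05). H2-DMb1 and H2-Eb1 were at -1.15 and -1.14. With centring 5 of the 8 were called lower, beside 11.9% of all tested genes. In Ttex cells the class II values lay in the opposite direction without a call, with a median of 1.26 over 9 genes. Cd74 there was at 40812 and 38852 normalized counts in KO and 16993 and 16787 in WT (1.24, limma adjusted p = 0.0508). H2-Ab1 was at 12156 and 9857 against 3735 and 3284 (1.64, limma adjusted p = 0.0508). The macrophage list without its class II genes had 18 of 21 genes with a positive log2 fold change. Its sum overlapped between genotypes, but Ly6c2 made up most of that sum. With centring or edgeR, 4 of the 9 class II genes were called higher, beside 14 of all 12559 tested genes under either.

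The mean of the 10 genes, as log2 values relative to the WT mean of each population, was -0.18 and -0.40 in the KO libraries and -0.03 and 0.03 in the WT libraries of total OT-I cells. In Ttex cells it was 0.06 and -0.16 in KO and 0.10 and -0.10 in WT. Among 5725 genes averaging 5 FPKM and 50 normalized counts or more, the 5 closest to that pattern over the 8 libraries were Napsa, Psmd13, Ddx39b, Pus1 and Pgam1, with root mean square log2 differences of 0.036 to 0.040. The 10 genes themselves lay at 0.104 (H2-D1) to 0.334 (B2m) from their own mean. Psmd13, a proteasome regulatory subunit gene, was at 73.1 and 62.1 FPKM in KO and 79.9 and 84.0 FPKM in WT, and Napsa, an aspartic protease gene, was at 23.4 and 18.9 FPKM against 24.7 and 26.7 FPKM. None of the 5 was called in either population.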

How the data were processed

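Polyadenylated RNA of 8 libraries in 4 groups of 2 was analysed, grouped by the labels' titles. The submitters' processing notes name the build mm10 and the tools DESeq2, RSEM, featureCounts, Bowtie2 and Trim Galore (version 0.4.4), with no roles. Each population has its own deposited table. The header for total OT-I cells names no unit. Its deposited values behave as FPKM, since with GENCODE M21 exon lengths and 1 divisor per library 98.3 to 98.4% of values lay within 0.1 read of a whole number. Those divisors were 1.12 and 1.25 (KO) and 0.962 and 0.951 (WT) times the recovered totals. The authors also deposited log2 fold changes and adjusted p-values (p-value columns) from DESeq2 there, with a test statistic (a score) not used here, per the file headers. The deposited Ttex signal is gene counts divided by a size factor per library (100% within 0.01 read).

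As neither table holds raw counts, limma-trend 3.58.1 (two-sided, KO against WT, Benjamini-Hochberg over all tested genes, threshold 0.05) was run per table on log2(value + 1), for genes averaging 1 FPKM, or 10 normalized counts, or more. The pseudocount understates changes of low genes. Prior degrees of freedom were 4.48 in Ttex cells. Ratios used exact permutation tests. Alternatives covered scaling, filter, pseudocount, robust variance, a replicate block, leaving out each library, edgeR 4.0.16 and DESeq2 1.42.0 on recovered reads. The edgeR test for total OT-I cells and the length correction were chosen after the data were seen. The fits were tested on simulated data. The 10 genes and the gene lists were chosen with earlier results of these data known. Named are the 10 genes, Zbtb32, Ifng, Psmb5 to Psmb7, Psme1, Psme2, Irf1, Ifngr1 and H2-T23, up to 4 called genes per list by size of change (or the 2 most abundant where none was called), and the 5 genes most like the mean of the 10. A regulator that this rule also names is not reported here. Merged exon lengths cover all annotated transcripts, which limits ratios of levels between genes. In the comparison of a ratio between genotypes the lengths cancel, except with the length trend removed, which uses the same lengths. Marker lists for B cells, red blood cells, endothelium with fibroblasts, and neutrophils were also read. They summed to 2.95 to 3.97, 8.17 to 22.3, 8.03 to 10.9 and 1.37 to 2.14 FPKM per library, and red blood cell markers were called higher in KO for 4 of 4 tested. Melanoma markers in total OT-I cells were called higher for 5 of 7 tested and lower for 1, Mlana (-0.48, limma adjusted p = 0.00725). T cell markers were called lower for 3 of 7. Of all tested genes there, 2.45% were called higher and 30.4% lower.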

Additional observations from a re-analysis of the deposited data

Results flagged for a closer look

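Of 48 named genes tested in both populations, for 9 both KO libraries lay below both WT libraries in total OT-I cells and above both in Ttex cells. That pattern was found in 9.45% of the 8962 genes tested in both. Many of the 48 were named because they were called with large changes in total OT-I cells. Their share therefore cannot be set against that of all genes. The difference between populations was not tested, since the tables were normalized separately. None of the 10 class I and immunoproteasome genes showed this pattern. Among proteasome genes the log2 fold changes in total OT-I cells and in Ttex cells were -0.52 and 0.19 for Psme1, -0.66 and 0.25 for Psme2, and -0.68 and 0.12 for Psmb2. For class II genes they were -1.26 and 1.56 for H2-Aa, -1.15 and 1.26 for H2-DMb1, -1.15 and 1.24 for Cd74, -1.14 and 1.69 for H2-Eb1, and -1.0 and 1.64 for H2-Ab1. For Fcgrt they were -0.94 and 1.69. Other macrophage markers, without the class II genes, had median log2 fold changes of -1.10 and 0.89. In Ttex cells 18 of 21 had a positive log2 fold change. Their summed level overlapped between genotypes there, but Ly6c2 made up most of that sum. The part of these macrophage markers in the values above was not tested.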

How the results depend on the processing

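In total OT-I cells 3144 genes were called, and 1706 with edgeR, 2038 with the length trend removed, 1674 with upper-quartile scaling and 1637 to 2699 with 1 library left out. Of the 10 genes 1 was called, and 0 with centring, without the filter or with upper-quartile scaling, 5 with the replicate block, 3 with robust variance, 2 with the length trend removed and 0 to 4 with 1 library left out (4 without KO replicate 1, 0 without either WT library). In Ttex cells 3 genes were called, and 387 with DESeq2, 15 with centring, 15 with edgeR (TMM), 15 with upper-quartile scaling, 0 without the filter, 5 with a pseudocount of 10, 844 with the replicate block, 21 with the length trend removed and 0 to 26 with 1 library left out (26 without WT replicate 1). The cause of these differences was not tested. The labels do not say that replicate numbers pair libraries, and same-numbered libraries' deviations correlated at r = 0.299 in total OT-I cells and 0.139 in Ttex cells. With the replicate block 3836 of 9574 tested genes were called in total OT-I cells, 3510 of them lower. With robust variance 3196 of the 9574 were called, 2958 of them lower. Across the alternatives run, B2m in total OT-I cells lost its call with centring, upper-quartile scaling, no filter, or either WT library left out. H2-K1 gained a call with the replicate block, Psmb8 gained one with the replicate block, robust variance, the length trend removed or KO replicate 1 left out, Psmb9 with the block or KO replicate 1 left out, and Psmb10 with the block, robust variance or KO replicate 1 left out.

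The log2 fold changes that changed sign were uncalled in the reported fit, except for Psmg4. In total OT-I cells the changed values were these. With centring, H2-D1 was at 0.11, Tapbp at 0.22, Irf1 at 0.15, Ifngr1 at 0.063 and Zbtb32 at 0.25. With edgeR (TMM), H2-D1 was at 0.12, Tapbp at 0.23, Irf1 at 0.15, Ifngr1 at 0.074 and Zbtb32 at 0.26. With the length trend removed, H2-D1 was at 0.12, Tapbp at 0.14, Psmb5 at 0.088, Irf1 at 0.051, Ifngr1 at 0.046, Zbtb32 at 0.30 and Psmg4 at 0.028. With upper-quartile scaling, H2-D1 was at 0.11, Tapbp at 0.22, Irf1 at 0.14, Ifngr1 at 0.063 and Zbtb32 at 0.25. With the authors' deposited DESeq2 output, Tapbp was at 0.033 and Zbtb32 at 0.068.

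The Ttex values that changed sign were these. With DESeq2, B2m was at 0.042, Nlrc5 at 0.0045, Psmb7 at 0.040, H2-Q7 at 0.016 and Hsp90ab1 at 0.034. With centring, B2m was at 0.061, H2-K1 at 0.016, Nlrc5 at 0.030, Psmb7 at 0.053, H2-Q7 at 0.061 and Hsp90ab1 at 0.065. With edgeR with size factors, B2m was at 0.042, Nlrc5 at 0.0045, Psmb7 at 0.040, H2-Q7 at 0.016 and Hsp90ab1 at 0.034. With edgeR (TMM), B2m was at 0.042, Nlrc5 at 0.0042, Psmb7 at 0.039, H2-Q7 at 0.016 and Hsp90ab1 at 0.033. With upper-quartile scaling, B2m was at 0.058, H2-K1 at 0.012, Nlrc5 at 0.027, Psmb7 at 0.050, H2-Q7 at 0.057 and Hsp90ab1 at 0.061. With the length trend removed, Nlrc5 was at 0.086, Psmb10 at -0.043, Psmb5 at -0.20, Psmb7 at 0.038, H2-Q7 at 0.086 and Hsp90ab1 at 0.022.

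With the length trend removed (chosen after the data were seen), log2 ratio differences in total OT-I cells moved to -0.43 for Psmb8 per Psmb5, -0.24 for Psmb9 per Psmb6, 0.37 for Psmb10 per Psmb7, 0.23 for H2-K1 per B2m and 0.40 for H2-D1 per B2m. In Ttex cells they moved to 0.32, 0.036, -0.082, 0.33 and 0.26, each with a change of sign.

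With 1 library left out, total OT-I values that changed sign ran from -0.32 to 0.038 for H2-D1, -0.019 to 0.37 for Tap1, -0.14 to 0.086 for Tapbp and -0.19 to 0.18 for Zbtb32. Ttex values ran from -0.31 to 0.27 for B2m, -0.35 to 0.23 for H2-K1, -0.28 to 0.24 for H2-Q7, -0.29 to 0.44 for H2-T23, -0.071 to 0.043 for Hsp90ab1, -0.036 to 0.093 for Hspa8, -0.18 to 0.083 for Nlrc5, -0.048 to 0.35 for Psma3, -0.20 to 0.36 for Psmb10, -0.15 to 0.49 for Psmb3, -0.24 to 0.51 for Psmb5, -0.061 to 0.40 for Psmb6, -0.31 to 0.26 for Psmb7, -0.066 to 0.18 for Psmb8 and -0.070 to 0.15 for Psmb9.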
